A study of Homo sapiens with 24 samples.

Results

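The expression comparison described here is that of 5-Aza-CdR against untreated control on the arrays labelled T24, and it was made up of the 4 arrays titled T24 AZA and T24 Ctrl, 2 of each, out of 24 arrays in the series. The study asked whether inhibiting DNA methyltransferases and the histone demethylase LSD1 together reactivates silenced genes, and it used 3 cell lines, T24 (bladder carcinoma), HL60 (promyelocytic leukemia) and HCT116 (colorectal carcinoma), with 8 arrays per line. RNA was hybridised to Illumina HumanHT-12 V4 BeadChips, on which each probe is a short oligonucleotide attached to beads. The T24 control cells received no drug, and the 5-Aza-CdR cells received 1 µM for 24 hours, after which the drug was removed. Both were sampled on day 18, so the arrays show what was left of the response long after the pulse. The other 4 arrays labelled T24, 2 with clorgyline at 10 µM and 2 with both drugs (the combinatorial treatment), served here to estimate the spread and as the conditions set beside 5-Aza-CdR. Clorgyline was developed against monoamine oxidase and acts on LSD1 as well. HL60 cells, set beside these arrays below, received 5-Aza-CdR at 0.1 µM for 24 hours and were sampled on day 18. For HCT116 the doses were 0.3 µM of 5-Aza-CdR for 24 hours and 10 µM of clorgyline, and sampling was on day 20. T24 is a line grown from a single tumour, and bulk RNA was measured, so more cells expressing a gene and more RNA per cell cannot be told apart.

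5-Aza-CdR (decitabine, 5-aza-2'-deoxycytidine) is a deoxycytidine analog that deoxycytidine kinase phosphorylates and that dividing cells build into DNA, where it traps DNA methyltransferases, so that newly made strands lose methylation. Genes held silent by methylation of their promoters can then be transcribed, and remethylation after the drug is withdrawn can silence them again. Cancer testis genes, expressed in germ cells and silent in most adult tissues, are the best known class of genes that respond in this way, and imprinted genes, which carry methylation on a single parental copy, are another class under this control.

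The deposited values are log2 intensities. On the 8 arrays labelled T24 they ran from 7.92 to 14.77 with a median of 8.10, and the third quartile was 8.30, so a value close to 8 lies at the lowest signal of the array and a fold change that starts there can be compressed. The sorted values of the 8 arrays differed by no more than 0.0032, so the arrays had been brought to a single distribution. Across probes, the control arrays correlated with each other at 0.997 and the 5-Aza-CdR arrays at 0.992, and arrays of the 2 conditions at 0.986 to 0.990. The median standard deviation within a condition was 0.03. Whether a condition's replicates came from different cultures is not given, so p values rest on array-to-array spread that may be technical, and the number of arrays limits the precision.

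The label of the line was set against marker genes. Of 10 genes of mesenchymal-type carcinoma cells such as T24, 8 lay above the third quartile in the controls, among them VIM, CD44, CAV1 and ANXA1. KRT7, a keratin of urothelial carcinoma, lay near the floor at 8.12 on both control arrays, EPCAM, an epithelial adhesion molecule, lay at 12.59 to 12.75 over the control and 5-Aza-CdR arrays, and the uroplakins, which define differentiated urothelium, lay at 7.98 to 8.16. Of 8 markers of urothelium 1 lay above the third quartile in the controls (PPARG), against 3 of 10 for colon epithelium and 1 of 9 for myeloid cells. On the 2 arrays labelled HCT116 control, KRT7 lay at 11.29 and 12.11 and EPCAM at 7.84 to 7.88. Those 2 arrays correlated with the 4 arrays compared here at 0.912 to 0.916, whereas the 6 arrays labelled HCT116 with a treatment correlated with them at 0.980 to 0.992. The markers thus go against the names, and the line on the arrays labelled T24 may not be T24. If it is another line, the dose given for T24 may not be the one these cells received. The arrays are called by their labels, and the fits behind the values of this comparison left out those labelled HCT116. The summed levels of the marker lists on control replicates 1 and 2 and 5-Aza-CdR replicates 1 and 2 were 66.2, 66.2, 66.2 and 66.0 for urothelium, 73.3, 73.4, 73.4 and 73.3 for myeloid cells, and 86.6, 86.1, 86.5 and 86.9 for colon epithelium. The same sums for the carcinoma list were 107.8, 107.0, 109.0 and 109.2, where VIM made up most of the rise.

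On the arrays labelled T24, 5-Aza-CdR left a short list of strongly raised transcripts. A transcript here is a probe, and a call of up- or down-regulation needed p under 0.01 in limma, before adjustment, together with a fold change over 2. Of 47231 probes, 30 were up-regulated, which is 0.0635%, and 3 were down-regulated, which is 0.00635%. Without a limit on the fold, 588 probes were higher and 528 lower at p under 0.01. At a Benjamini-Hochberg adjusted p under 0.05 over all probes, 44 were higher, which is 0.0932%, and 12 were lower, which is 0.0254%. Of the 30 up-regulated transcripts, 25 also passed the adjusted p, and of the 3 down-regulated ones 0 did. Most up-regulated transcripts rose from low signal: 26 of the 30 had a mean of the controls below the third quartile. By definition a share of about 0.75 of all values on the arrays labelled T24 lies below that quartile. The count alone therefore does not set these transcripts apart from other probes. The median change of the 30 was 2.91 on the log2 scale.

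**Figure D1:**
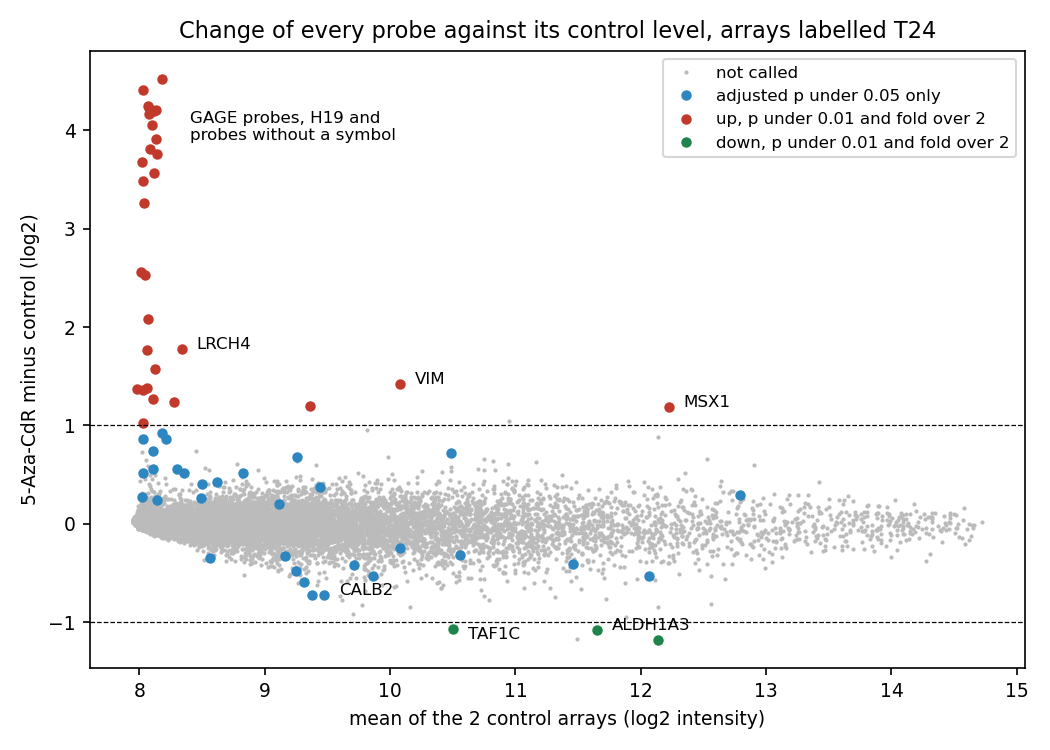
Each point is a probe, with the mean of the 2 control arrays on the x axis (log2 intensity) and the difference 5-Aza-CdR minus control on the y axis (log2), for arrays labelled T24; dashed lines mark a fold of 2. The 30 up-regulated probes (red) form a column near a control level of 8 that reaches 4.52, with VIM and MSX1 as the exceptions at higher levels, and the 3 down-regulated probes (green) all start above 10.

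By name, 17 of the 30 up-regulated probes carried a gene symbol, for 15 genes, and 10 of the 17 belonged to the GAGE family. The other named genes were H19, LRCH4, VIM, CT45A3, MSX1 and CTCFL. Among the 14 up-regulated genes with a chromosome in the annotation, 9 were X-linked, against 4.29% of all genes on the array. All of these 9 but CT45A3 are GAGE genes of a single tandem cluster, so the count does not stand for 9 separate loci. The 13 up-regulated probes without a symbol in the annotation used here had control values of 7.98 to 8.20, 5-Aza-CdR values of 9.12 to 12.81 and changes of 1.36 to 4.52. None of the 13 is named here.

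The GAGE genes encode short cancer testis antigens and lie in tandem copies on the X chromosome. RefSeq (GRCh38.p14) places 12 of them, from GAGE10 to GAGE1, at chrX:49303646-49608538. The 250 bases before the start site are shown for GAGE12G, which was strongly up-regulated, for GAGE10, the GAGE gene whose window differs most from it, and for PAGE1, a related gene in the same region that rose slightly, so that the copies can be compared. Capitals mark CG dinucleotides (CpG sites), the sites that DNA methyltransferases modify. The windows are at chrX:49570147-49570396, plus strand, at chrX:49303396-49303645, plus strand, and at chrX:49695985-49696234, minus strand.
GAGE12G promoter window: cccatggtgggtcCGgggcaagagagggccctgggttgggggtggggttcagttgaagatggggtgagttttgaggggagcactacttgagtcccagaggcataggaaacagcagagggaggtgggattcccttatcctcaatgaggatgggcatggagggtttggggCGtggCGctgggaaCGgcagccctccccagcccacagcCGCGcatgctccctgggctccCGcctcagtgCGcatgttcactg
GAGE10 promoter window: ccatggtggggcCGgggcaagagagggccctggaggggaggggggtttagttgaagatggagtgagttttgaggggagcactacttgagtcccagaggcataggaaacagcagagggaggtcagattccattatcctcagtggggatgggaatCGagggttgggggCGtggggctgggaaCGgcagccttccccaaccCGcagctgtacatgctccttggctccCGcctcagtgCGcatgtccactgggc
PAGE1 promoter window: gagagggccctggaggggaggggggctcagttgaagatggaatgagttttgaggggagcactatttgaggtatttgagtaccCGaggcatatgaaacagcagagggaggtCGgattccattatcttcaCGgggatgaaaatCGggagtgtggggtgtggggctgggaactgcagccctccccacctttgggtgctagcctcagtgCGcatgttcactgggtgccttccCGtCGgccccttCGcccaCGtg

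The GAGE12G window holds 8 CpG, the GAGE10 window 7 and the PAGE1 window 9, and 56.3% of 35116 promoter windows of this length hold 8 or more. In an alignment with free ends, the windows of GAGE12B, GAGE12C, GAGE12D, GAGE12E, GAGE12F, GAGE12H, GAGE12J and GAGE2A were identical to that of GAGE12G over the 231 to 247 bases they share. The GAGE10 window was 89.6% identical to it and the PAGE1 window 75.7%. The windows of other PAGE, XAGE and CT45 genes were 51.5% to 65.2% identical, which is a description of the sequences and not of binding or methylation. Because the transcripts of the copies are nearly the same, a GAGE probe may also pick up RNA of other copies, and the values of single GAGE genes are uncertain to that extent.

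GAGE12G showed the pattern of the family. Its value was 8.14 and 8.10 on the control arrays and 12.24 and 12.38 on the 5-Aza-CdR arrays. The change was 4.20 (SE 0.05, 18.3-fold, limma adjusted p = 3.93e-06), and the groups lay far apart. GAGE12C was at 8.07 and 8.08 in the controls and at 12.38 and 12.10 with 5-Aza-CdR, a change of 4.16. The 2 probes of GAGE4 changed by 4.41 and 4.20. Further down the family, GAGE12H changed by 3.76, GAGE12J by 3.56, GAGE12F by 3.48 and GAGE12B by 3.26. GAGE2A went from 8.02 and 8.0 to 10.43 and 10.71, a change of 2.56 (SE 0.08, adjusted p = 0.000213 from limma). GAGE12E went from 8.15 and 8.07 to 9.42 and 9.34, a change of 1.27 (adjusted p = 0.0446 from limma), the smallest among the called GAGE probes.

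Of 13 GAGE probes measured, 10 were thus up-regulated. The remaining 3 were not past a fold of 2. GAGE7 changed by 0.75 and GAGE12D by 0.73, and in both genes the 5-Aza-CdR arrays lay above the control arrays. The window of GAGE12D is identical to that of GAGE12G where they align. GAGE10 lay at 8.06 and 8.05 in the controls and at 8.10 and 8.10 with 5-Aza-CdR, all at the floor. Counted over genes, with 1 probe per gene and p under 0.01, 11 of 12 GAGE genes were higher and 0 lower, with a median change of 3.37, against 315 genes higher (1.57%) and 283 lower (1.41%) of 20046 genes, with a median of -0.00024. At an adjusted p under 0.05 over all genes, 8 GAGE genes were higher, against 20 higher and 8 lower in all. The adjusted p of GAGE12F and GAGE12J rose above 0.05 without either control array, to at most 0.102 and 0.0670, and that of GAGE12E without any one of the control, 5-Aza-CdR or clorgyline arrays, to at most 0.408.

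**Figure D2:**
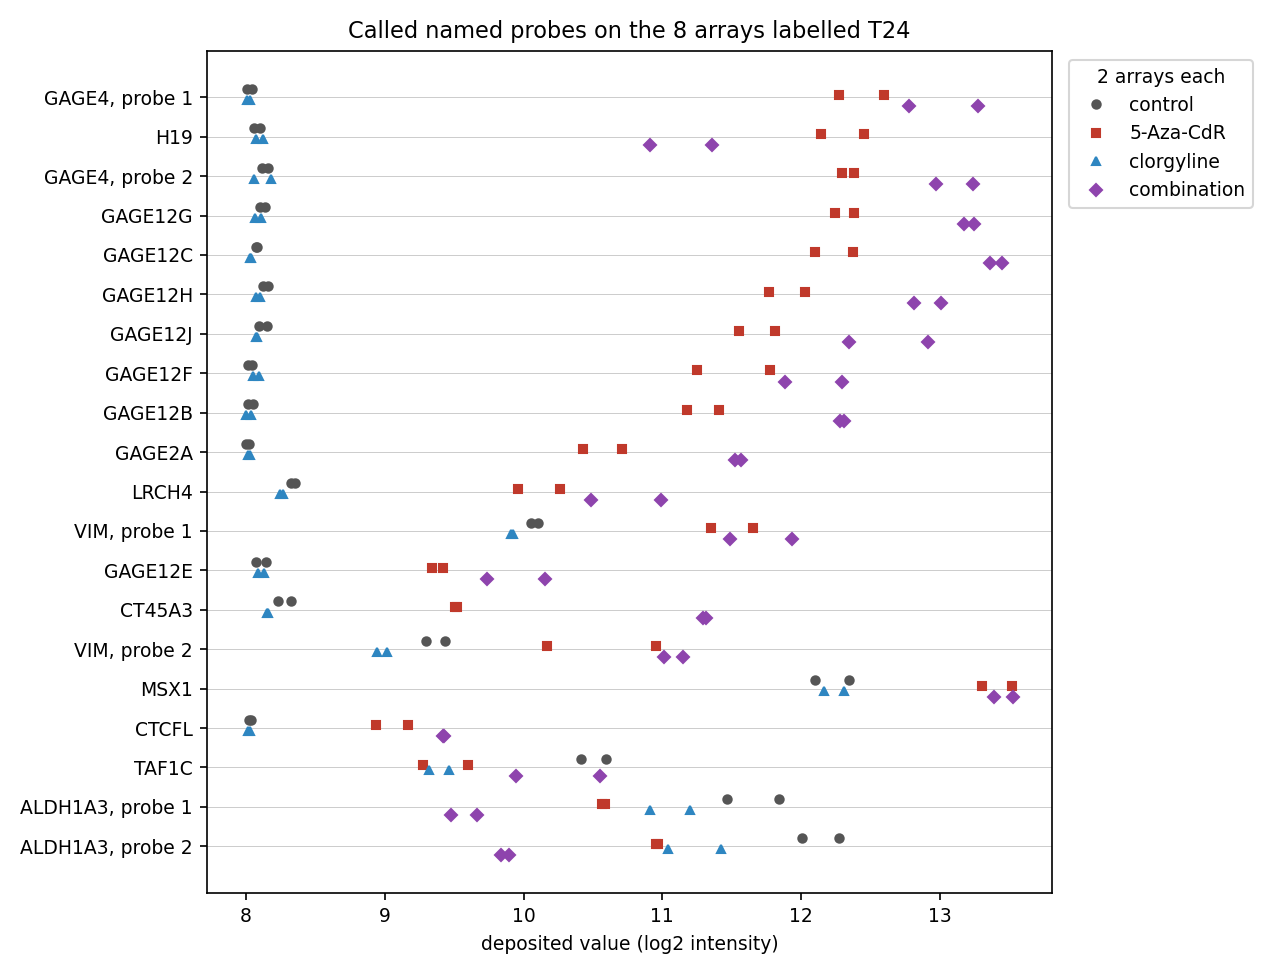
Deposited values (log2 intensity, x axis) of the called probes with a symbol on each of the 8 arrays labelled T24, with 2 arrays per condition. For the GAGE probes and H19 the control and clorgyline points lie together near 8 and the 5-Aza-CdR points lie between 9.34 and 12.59; VIM and MSX1 start higher, and TAF1C and ALDH1A3 lie lower with 5-Aza-CdR than in the controls.

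Other cancer testis families on the X chromosome moved less. CT45A3, a member of a small X-linked cancer testis family, was at 8.23 and 8.32 in the controls and at 9.51 and 9.52 with 5-Aza-CdR. The change was 1.24 (SE 0.03, limma adjusted p = 8.24e-05), and its other 2 probes changed by 0.92 and 0.86. The adjusted p of the probe at 0.92 rose to at most 0.0863 without either control array, and that of the probe at 0.86 to at most 0.339 without any one of the control, 5-Aza-CdR or clorgyline arrays. CT45A1 and CT45A5 changed by 0.35 and 0.28 and did not pass an adjusted p of 0.05. PAGE1 went from 8.01 and 8.02 to 8.28 and 8.29, a change of 0.27 (SE 0.02, limma adjusted p = 0.0113), and PAGE5 changed by 0.32. PAGE2B was at 8.11 and 8.13 in the controls and at 8.28 and 8.29 with 5-Aza-CdR (0.17, adjusted p = 0.758 from limma), and it passed p under 0.01 at the same change without either combination array or with only the groups compared. Of 65 measured genes of these other X-linked families, 10 were higher and 0 lower at p under 0.01, against 1.57% and 1.41% of all genes. The median change of the 65 was 0.02. Nearly all of these genes stayed close to the floor. The adjusted p of PAGE1 rose above 0.05 without any one of the 4 arrays compared, to at most 0.159.

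The MAGE family, whose members bind ubiquitin ligases and which includes antigens used in immunotherapy, held 6 higher and 0 lower genes of 24. At the same p under 0.01, 1.57% of all genes were higher and 1.41% lower. The median change of the family was 0.04. MAGEC2 went from 8.03 on both control arrays to 8.60 and 8.49, a change of 0.52 (SE 0.04, limma adjusted p = 0.0130), and it was the sole member past the adjusted p. MAGEA8 lay at 8.05 on both control arrays and at 8.63 and 8.77 with 5-Aza-CdR (0.65), MAGEA4 changed by 0.50 and MAGEA1 by 0.43. In each of these 4 genes both 5-Aza-CdR arrays lay above both control arrays. Without either control array the adjusted p of MAGEC2 rose to at most 0.193. TKTL1, a transketolase-like gene also expressed in testis, changed by 0.12 (adjusted p = 0.651 from limma).

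Among autosomal germline genes, CTCFL (BORIS), the testis paralog of the insulator protein CTCF, rose from 8.02 and 8.04 to 9.17 and 8.94. The change was 1.02 (SE 0.07, adjusted p = 0.00882 from limma), at the edge of the limit on the fold, and without 5-Aza-CdR replicate 1 it was 0.91. Without either control array the adjusted p rose to at most 0.153. Of 94 autosomal germline and piRNA genes, 5 were higher and 2 lower, against 1.57% and 1.41% of all genes. The list median was 0.01. DCAF12, a ligase adaptor that is widely expressed, went down from 9.78 and 9.63 to 8.87 and 8.71 (-0.91, adjusted p = 0.250 from limma). POTEF, whose transcript shares sequence with actin, changed by 0.43. GTSF1, a piRNA pathway gene, was high in all arrays, at 11.18 and 11.16 in the controls and 11.11 and 11.27 with 5-Aza-CdR, and its groups overlapped. The promoter of CTCFL is shown as that of the called germline gene outside the X chromosome. It lies at chr20:57524698-57524947, minus strand (GRCh38.p14, RefSeq), and belongs to 1 of 3 start sites, with 15 CpG, while the windows of the other 2 hold 7 and 2.
CTCFL promoter window: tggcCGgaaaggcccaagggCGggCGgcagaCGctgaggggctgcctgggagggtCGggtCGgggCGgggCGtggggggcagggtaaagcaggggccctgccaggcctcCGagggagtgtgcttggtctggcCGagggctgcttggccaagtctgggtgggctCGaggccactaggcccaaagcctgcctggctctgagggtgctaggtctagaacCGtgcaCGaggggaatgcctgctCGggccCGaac

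H19, a maternally expressed imprinted noncoding RNA that fetal tissues make in quantity, rose as much as the GAGE genes. It lay at 8.10 and 8.06 on the control arrays and at 12.14 and 12.45 on the 5-Aza-CdR arrays. The change was 4.22 (SE 0.16, 18.6-fold, adjusted p = 0.000464 from limma). Of 60 measured imprinted genes, 3 were higher and 0 lower, against 1.57% and 1.41% of all genes, with a list median of -0.0011. The other 2 were NLRP2 (0.25) and CDKN1C (0.12), neither past the adjusted p, so that H19 stood alone in size within the list. Its promoter window is shown because it is the one called gene of the list, with 4 CpG, fewer than the 8 of GAGE12G, and 70.7% of all windows hold 4 or more. The window, at chr11:2001267-2001516, minus strand (GRCh38.p14, RefSeq), does not reach the imprinting control region upstream.
H19 promoter window: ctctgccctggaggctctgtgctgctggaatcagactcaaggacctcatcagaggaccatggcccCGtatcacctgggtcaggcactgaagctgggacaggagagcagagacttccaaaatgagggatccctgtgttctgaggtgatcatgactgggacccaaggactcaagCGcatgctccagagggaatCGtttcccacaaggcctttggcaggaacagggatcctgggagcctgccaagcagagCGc

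VIM encodes vimentin, the intermediate filament of mesenchymal cells. Its brighter probe lay at 10.05 and 10.11 in the controls and at 11.35 and 11.65 with 5-Aza-CdR, a change of 1.42 (SE 0.16, adjusted p = 0.0649 from limma). The second probe lay at 9.44 and 9.29 and at 10.17 and 10.96, a change of 1.20 (SE 0.23, adjusted p = 0.271 from limma). For both probes the groups did not overlap, and neither passed an adjusted p of 0.05. The brighter probe passed it, at 0.0317, without either combination array. The second probe passed it, at 0.00918, without 5-Aza-CdR replicate 1, where its change was 1.59, and without 5-Aza-CdR replicate 2 its change was 0.81.

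Of 56 measured genes of the cytoskeleton, 4 were higher and 0 lower, with a median of 0.05, where 1.57% of all genes were higher and 1.41% lower. Besides VIM these were the tubulins TUBB2A, from 9.36 and 9.15 to 9.89 and 9.99 (0.68, limma adjusted p = 0.0449), and TUBB6 (0.60), and the filament protein nestin, NES (0.40). TUBB2A lost its adjusted p without control replicate 2 or any one of the 5-Aza-CdR, clorgyline or combination arrays, where it reached at most 0.165. PFN1, profilin, an actin-binding protein, went from 12.78 and 12.80 to 13.08 and 13.09 (0.29, adjusted p = 0.00882 from limma), while its second probe changed by 0.10. Without any one of the 4 arrays compared PFN1 lost its adjusted p.

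With 1.57% of all genes higher and 1.41% lower as the background, of 61 mesenchymal and matrix genes, 4 were higher and 1 lower, with a median of 0.01. COL6A3, a chain of collagen VI, rose from 8.28 and 8.33 to 8.88 and 8.85 (0.56, limma adjusted p = 0.00922), and its second probe changed by 0.25. SPARC, a matrix glycoprotein, changed by 0.33 and the proteoglycan BGN by 0.31. Of 50 epithelial and urothelial genes, 4 were higher and 2 lower, with a median of -0.0092. The 2 lower genes were RAB25, a GTPase of epithelial trafficking (-0.47), and the tight junction protein CLDN7 (-0.33), and the higher ones were keratins at the floor, KRT7, KRT13 and KRT20, with changes of 0.21 to 0.30, and ELF3. None of these epithelial genes passed the adjusted p. COL6A3 lost its adjusted p without any one of the 4 arrays compared, reaching at most 0.137.

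MSX1, a homeobox transcription factor of craniofacial and limb development, was the brightest of the up-regulated genes in the controls. It lay at 12.35 and 12.10 in the controls and at 13.31 and 13.52 with 5-Aza-CdR. The change was 1.19 (SE 0.11, 2.28-fold, adjusted p = 0.0352 from limma). Without any one of the 8 arrays labelled T24 its adjusted p rose above 0.05, to at most 0.239, and the change stayed between 1.06 and 1.31. Of 29 HOX cluster genes, 0 were higher and 0 lower, against 1.57% and 1.41% of all genes. The promoter window of MSX1 is shown as that of an up-regulated gene that was not near the floor, at chr4:4859415-4859664, plus strand (GRCh38.p14, RefSeq). It holds 24 CpG, and 23.7% of windows hold as many.
MSX1 promoter window: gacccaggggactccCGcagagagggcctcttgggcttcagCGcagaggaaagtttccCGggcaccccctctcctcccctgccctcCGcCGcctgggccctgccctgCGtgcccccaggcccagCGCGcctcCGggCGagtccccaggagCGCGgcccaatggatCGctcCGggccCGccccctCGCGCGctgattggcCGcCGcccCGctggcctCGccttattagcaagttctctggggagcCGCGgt

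LRCH4 encodes a leucine-rich repeat protein that binds actin-regulating proteins of the DOCK family. One of its probes lay at 8.33 and 8.35 in the controls and at 9.96 and 10.26 with 5-Aza-CdR, a change of 1.77 (SE 0.17, adjusted p = 0.0375 from limma). The other probe of LRCH4 changed by -0.006, so the rise was seen by a single probe. Its adjusted p rose above 0.05, to at most 0.380, without any one of the control, 5-Aza-CdR or clorgyline arrays. The LRCH4 promoter window holds 27 CpG and that of VIM 8.

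The genes that passed the adjusted p with a smaller rise were of mixed kinds. CKM, the creatine kinase of muscle, went from 8.03 and 8.02 to 8.80 and 8.98 (0.86, adjusted p = 0.0446 from limma). CREB5, a transcription factor of the CREB family, rose by 0.56 on 1 of its 5 probes. MAP7D1, a microtubule-associated protein, rose by 0.52 on 1 probe and changed by 0.01 on the other. The pseudogene ARHGAP27P1 (0.52), the histone gene H2BC5 (0.43), the kinase MOK (0.41), the selenoprotein SELENOM (0.37), the scavenger receptor SCARA3 (0.26) and the zinc finger gene ZNF22 (0.21) made up the rest, with MAGEC2, PAGE1, TUBB2A, COL6A3 and PFN1. The other 2 probes of H2BC5 changed by 0.20 and 0.017. Apart from TUBB2A, every gene of this set lost its adjusted p when either control array was left out.

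Fewer transcripts were called down-regulated, and they started from well expressed genes. The call rule bears on both, because a probe near the floor has no room to fall by a fold of 2. ALDH1A3, which makes retinoic acid from retinal, lay at 12.27 and 12.01 in the controls and at 10.97 and 10.95 with 5-Aza-CdR on its brighter probe, a change of -1.18 (SE 0.14, adjusted p = 0.0702 from limma). Its second probe lay at 11.47 and 11.84 and at 10.56 and 10.59, a change of -1.08 (adjusted p = 0.112 from limma). The groups did not overlap on either probe. Without control replicate 2 the change of the second probe was -0.89, under a fold of 2, and without either clorgyline array the brighter probe passed the adjusted p, at 0.0466. The promoter window of ALDH1A3 holds 38 CpG, and 3.28% of windows hold as many, and it is shown to set this dense window beside those of the raised genes. It is at chr15:100879581-100879830, plus strand (GRCh38.p14, RefSeq).
ALDH1A3 promoter window: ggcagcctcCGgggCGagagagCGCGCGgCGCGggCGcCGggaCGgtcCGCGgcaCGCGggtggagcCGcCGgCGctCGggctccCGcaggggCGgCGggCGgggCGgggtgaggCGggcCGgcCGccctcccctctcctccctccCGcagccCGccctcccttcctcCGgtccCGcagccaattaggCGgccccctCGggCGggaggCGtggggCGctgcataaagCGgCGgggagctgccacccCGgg

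TAF1C, a subunit of the selectivity factor of RNA polymerase I, lay at 10.41 and 10.59 in the controls and at 9.28 and 9.60 with 5-Aza-CdR on 1 probe. The change was -1.07 (SE 0.21, limma adjusted p = 0.271), and its other 2 probes changed by -0.0044 and 0.02. Without control replicate 2 it was -0.98 and without 5-Aza-CdR replicate 1 it was -0.90, both under a fold of 2. Of the 3 down-regulated transcripts, 1 was thus kept without control replicate 2 and 2 without 5-Aza-CdR replicate 1.

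Among the transcripts lower at an adjusted p under 0.05, CALB2, the calcium-binding protein calretinin, lay at 9.40 and 9.55 in the controls and at 8.74 and 8.76 with 5-Aza-CdR. The change was -0.72 (SE 0.05, limma adjusted p = 0.00878), and its second probe, near the floor, changed by -0.0052. Without 5-Aza-CdR replicate 2 its adjusted p was 0.0614. CLYBL, a mitochondrial enzyme of citramalyl-CoA breakdown, fell by 0.72 and 0.48 on 2 probes, and ACAD11, an acyl-CoA dehydrogenase, fell by 0.59 (adjusted p = 0.0102 from limma). RSL24D1 (-0.53) and BRIX1 (-0.40) act in the making of the large ribosomal subunit, and NKD2 (-0.52) restrains Wnt signaling. ITPRID2 (-0.42), the chromatin remodeler CHD9 (-0.32), the ubiquitin ligase TRIM33 (-0.32) and the pseudogene AOC4P (-0.24) were the others with a symbol. The 2 further probes of TRIM33 changed by -0.0081 and 0.01, the remaining probe of CLYBL by -0.052 and a second probe of BRIX1 by -0.25. Apart from CALB2, each of these genes lost its adjusted p without either control array.

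The genes on which the drug itself acts were examined against a background of 1.57% higher and 1.41% lower among all genes. DNMT1, the maintenance methyltransferase, lay at 12.42 and 12.41 in the controls and at 12.65 and 12.33 with 5-Aza-CdR (0.07, limma adjusted p = 0.955), and the groups overlapped. DNMT3A was at the floor (-0.01) and DNMT3B changed by 0.25 on its brightest probe (adjusted p = 0.537 from limma). The other DNMT3B probes changed by -0.017 to 0.10. UHRF1, which brings DNMT1 to hemimethylated DNA, lay at 10.97 and 10.92 and at 11.42 and 11.40 (0.47, limma adjusted p = 0.289). Its second probe, near the floor, changed by -0.031. UHRF1 was the one higher gene of 26 in the methylation machinery, with 0 lower and a median of 0.02. DCK, the kinase that activates the drug, changed by 0.04, and CDA, the deaminase that inactivates it, by 0.21. Of 29 genes of the uptake and metabolism of deoxycytidine analogs, 0 were higher and 1 lower, the exporter ABCC3 (-0.45). KDM1A, which encodes LSD1, lay at 10.50 and 11.04 in the controls and at 10.59 and 10.49 with 5-Aza-CdR, and MAOA changed by -0.22. CDKN2A, often methylated in bladder tumours, lay at 9.04 and 9.09 in the controls and at 8.91 and 9.0 with 5-Aza-CdR. Its other probes changed by -0.25 and 0.0081. None of DNMT1, DNMT3A, DNMT3B, DCK, CDA, KDM1A, MAOA and CDKN2A reached p under 0.01, which does not show that they did not change. Among them, CDA passed p under 0.01 at the same change without either combination array, and KDM1A passed it without control replicate 1, at a change of -0.50.

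Of 66 genes reported as promoter methylated in carcinomas, 5 were higher and 0 lower, with a median of 0.0059, against 1.57% higher and 1.41% lower of all genes. They were VIM (1.42), UCHL1, a neuronal ubiquitin hydrolase (0.49), SPARC (0.33), KRT13 (0.30) and the Wnt antagonist SFRP1 (0.14). UCHL1 lay at 8.06 and 8.02 in the controls and at 8.51 and 8.54 with 5-Aza-CdR. None of the 5 passed an adjusted p of 0.05.

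**Figure D3:**
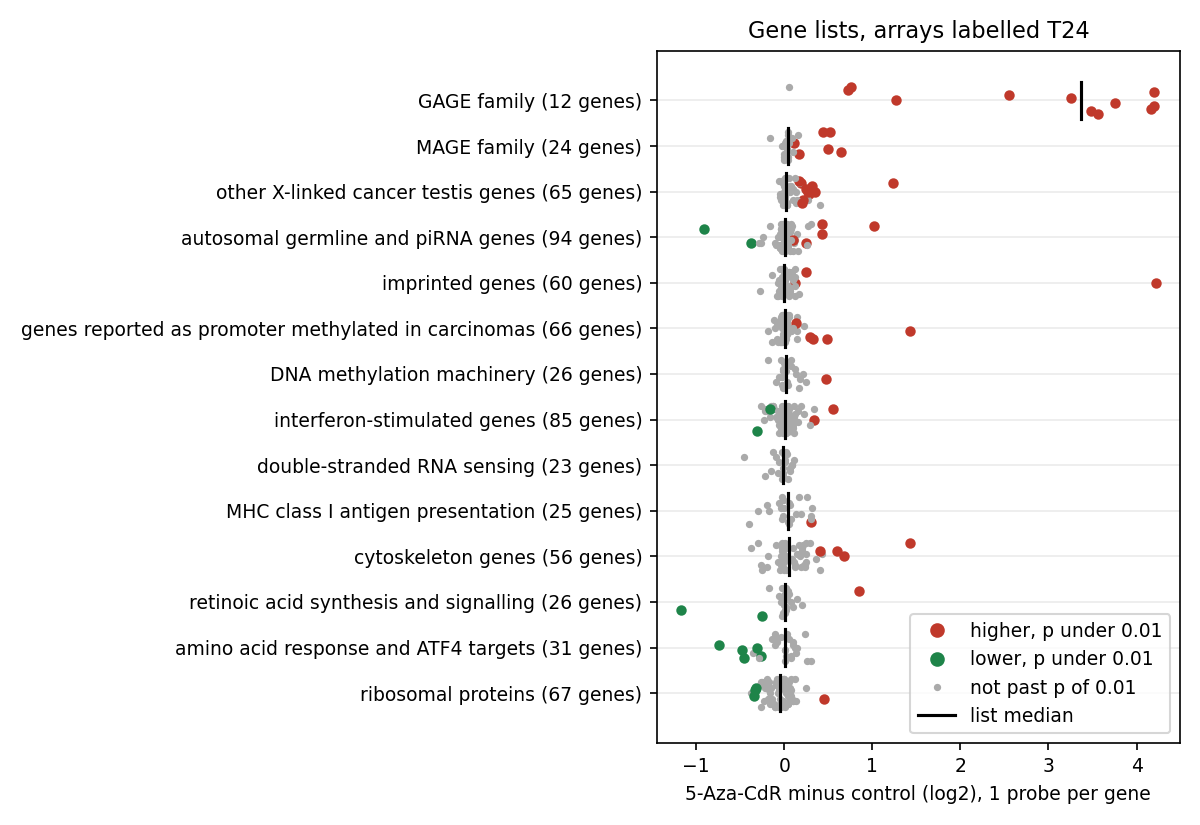
Change with 5-Aza-CdR (5-Aza-CdR minus control, log2, x axis) of each measured gene of 14 gene lists on the arrays labelled T24, with 1 probe per gene; red and green points passed p under 0.01 in limma and vertical bars are list medians. The GAGE median lies at 3.37, while the medians of the other lists lie near 0, with a few genes such as H19 (4.22) and ALDH1A3 (-1.18) apart from them.

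Genes of antiviral defence are to be read against all genes, of which 1.57% were higher and 1.41% lower at p under 0.01. Of 85 interferon-stimulated genes, 2 were higher, BST2 (0.34) and LY6E (0.55), and 2 lower, UBE2L6 (-0.31) and TRIM5 (-0.16), with a median of 0.01. IFI27 lay at 8.10 on both control arrays and at 8.42 and 8.46 with 5-Aza-CdR (0.34, adjusted p = 0.792 from limma). The combination arrays, which enter its spread, lay apart at 10.63 and 11.34, and without either of them, or with only the groups compared, IFI27 passed p under 0.01 at the same change. IFI6 changed by 0.10 and IFIT1 by 0.19, and on the IFI6 probe the groups overlapped. Of 23 genes of double-stranded RNA sensing and of 30 genes of interferons, their receptors and signaling, 0 were higher and 0 lower. HLA-B, a classical MHC class I heavy chain, was the one higher gene of 25 in antigen presentation (0.30). Of 36 cytokine and chemokine genes, IL32 (0.13) was higher and CXCL16 (-0.37) and the protease PLAU (-0.56) were lower. Of 11 endogenous retroviral envelope and related genes, 0 were higher and 0 lower. None of these genes passed the adjusted p.

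The counts of proliferation and stress genes stand beside 1.57% higher and 1.41% lower among all genes. Of 76 genes of DNA replication and mitosis, TOP2A (0.25), KIF4A (0.22) and ESPL1 (0.17) were higher and RFC3 (-0.14) lower, and the list median was 0.08. Of 39 p53 targets and CDK inhibitors, TP53I3 (0.19) and CDKN1C (0.12) were higher and FBXW7 (-0.15) lower. In the amino acid response, 5 of 31 genes were lower and 0 higher. They were ASNS, asparagine synthetase, from 11.26 and 11.37 to 10.62 and 10.52 (-0.75, adjusted p = 0.177 from limma), the serine synthesis enzymes PSAT1 (-0.48) and PHGDH (-0.46), the glycoprotein hormone STC2 (-0.31) and INHBE (-0.26). Their list median was 0.01, and none passed the adjusted p. The second probe of ASNS changed by -0.24. Of 28 genes of cholesterol synthesis and its control, 0 were higher and 0 lower, with a median of -0.11. Of 32 small noncoding RNAs, 4 were lower and 0 higher, among them RNU4-1 (-0.39) and RNU4-2 (-0.28) of the spliceosome.

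The lists that follow have the same background of 1.57% higher and 1.41% lower. Of 26 genes of retinoic acid synthesis and signaling, ALDH1A3 (-1.18) and DHRS3, a retinal reductase (-0.26), were lower. TGM2, a transglutaminase that retinoic acid induces, was higher, from 8.24 and 8.19 to 8.96 and 9.16 (0.84, adjusted p = 0.0907 from limma). Its other probes changed by 0.16 and 0.086. Of 70 histone genes, 3 were higher, H2BC5 (0.43), H1-2 (0.38) and H2AZ1 (0.24), and 0 lower, and H2BC12 changed by 0.14. Of 33 Wnt antagonists and targets, NOTUM (0.27), CTNNB1 (0.21) and SFRP1 (0.14) were higher and NKD2 lower. Of 19 S100 genes, S100A10, the partner of annexin A2, went from 12.86 and 12.94 to 13.49 and 13.51 (0.59), and S100A3 changed by 0.38. Of 67 ribosomal protein genes, 1 was higher, RPS23 (0.45), and 3 lower, RPL28 (-0.35), RPS25 (-0.33) and RPS21 (-0.33). Other lists held 0 to 2 called genes: metallothioneins (MT1G, 0.34), AP-1 and immediate early genes (ID2, 0.47), hypoxia and glycolysis (SLC2A1, 0.53, and PKM, 0.32), heat shock proteins (DNAJB1, 0.18), pentose phosphate enzymes and the LSD1 complex.

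The promoter windows of the called genes were compared by their CpG, with the first listed window of each gene. RefSeq had a window for 13 of the 15 up-regulated genes, with a median of 8 CpG and a range of 4 to 27, and 8 of the 13 belonged to GAGE genes that share their sequence. The 11 genes with a window among the 14 that were higher by the adjusted p alone had a median of 9. For 9 of the 12 lower genes the median was 27, with a range of 14 to 38, against 11 for all genes, expressed or not. Further windows can lie outside these ranges: those of CHD9, a lower gene, hold 33, 1 and 2 CpG. The counts describe sequence, and methylation was not measured on these arrays.

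The 2 other treatments on the arrays labelled T24 share the control arrays with 5-Aza-CdR, so their changes are set side by side. With clorgyline the 30 transcripts changed by a median of -0.02, from -0.39 to 0.04, and with the combinatorial treatment by 3.65. GAGE12G changed by -0.03 with clorgyline and by 5.09 with the combination, H19 by 0.02 and 3.06, and MSX1 by 0.01 and 1.24. TAF1C changed by -1.11 with clorgyline and by -0.26 with the combination, and the brighter ALDH1A3 probe by -0.90 and -2.27.

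The combinatorial treatment was compared directly with 5-Aza-CdR. Of the 30 up-regulated transcripts, 29 were higher with the combination, 17 of them passing the adjusted limit of 0.05 in limma, and 1, H19, was lower. The share of all probes that were higher with the combination was not taken, so these counts stand without a background and describe the 30 alone. The 30 were called on the same 5-Aza-CdR arrays, and the GAGE probes among them may pick up RNA of each other's genes. GAGE12G was higher by 0.90 (SE 0.05, adjusted p = 0.00189 from limma), GAGE12C by 1.17 and CT45A3 by 1.79 (adjusted p = 2.4e-05 from limma). H19 was lower by 1.16, with a difference of -1.16 (SE 0.16, adjusted p = 0.0312 from limma). MSX1 and VIM differed by 0.05 and 0.21, for which limma gave adjusted p = 0.922 and 0.679. Some genes with changes of 0.10 to 0.34 under 5-Aza-CdR alone differed more, each at an adjusted p under 0.05: TKTL1 by 2.19, PAGE2B by 1.95, H2BC12 by 2.58, IFI27 by 2.54 and IFI6 by 2.43. The adjusted p of H19 rose above 0.05, to at most 0.116, without either control or clorgyline array, 5-Aza-CdR replicate 2 or combination replicate 2. That of ALDH1A3, lower with the combination by 1.09 on its brighter probe (difference -1.09, adjusted p = 0.0235 from limma), rose to at most 0.106 without any one of the control, 5-Aza-CdR or combination arrays.

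HL60 cells received 5-Aza-CdR at 0.1 µM rather than 1 µM, and their arrays were normalized separately, so the changes within each line were compared and the levels were not. Of the 30 transcripts, 29 had both HL60 5-Aza-CdR arrays above both HL60 control arrays, and 27 were higher in HL60 at an adjusted p under 0.05. The change was larger in HL60 for 24 transcripts and larger on the arrays labelled T24 for 3, judged by the adjusted limma p of the difference between the changes. Such counts were not made over all probes, so no background share stands beside these. The 30 include 10 GAGE probes, which may pick up RNA of each other's genes and are not separate observations. All 30 were also called by the change on the arrays labelled T24, which is part of the difference. The counts are therefore a description of the 30 alone. Most of the 30 start at the floor, which lay lower in HL60, so the changes are compressed and their difference is not an exact one. For these transcripts the lower floor can shift the difference towards a larger change in HL60. GAGE12G went from 7.64 and 7.44 to 13.59 and 13.88 in HL60, and its change was smaller on the arrays labelled T24, with a difference of -2.0 (SE 0.13, adjusted p = 3.09e-06 from limma). H19 went from 7.38 and 7.39 to 10.19 and 10.08 in HL60, and its change was larger on the arrays labelled T24 by 1.47 (SE 0.17, adjusted p = 0.0004 from limma). CTCFL changed by 1.99 in HL60, a difference of -0.97 (limma adjusted p = 0.00156), and LRCH4 by 2.8, a difference of -1.03 (adjusted p = 0.0327 from limma). CTCFL started at 7.25 and 7.23 in HL60 and at 8.02 and 8.04 on the arrays labelled T24. With 5-Aza-CdR it reached 9.07 and 9.38 in HL60 and 9.17 and 8.94 on the arrays labelled T24. Much of its difference thus lies in the starting level. The LRCH4 difference lost its adjusted p, at most 0.123, without either T24 control array or T24 5-Aza-CdR replicate 1. CT45A3 changed by 1.18 in HL60, a difference of 0.06 (SE 0.09, adjusted p = 0.853 from limma).

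Of the up-regulated genes with a symbol, MSX1 and VIM did not pass the adjusted p in HL60. Both were called by their change on the arrays labelled T24, which is part of each difference given here. The same holds for ALDH1A3 and TAF1C. MSX1 lay at 7.85 and 7.94 in HL60 controls and at 7.79 and 7.89 with 5-Aza-CdR, near the floor, and the difference of the changes was 1.25 (SE 0.14, adjusted p = 0.000349 from limma). The brighter VIM probe changed by 0.18 in HL60, a difference of 1.24 (SE 0.17, limma adjusted p = 0.00136), and the second VIM probe gave 0.96 (adjusted p = 0.0611 from limma). The 2 ALDH1A3 probes lay at the floor in HL60, at 7.09 to 7.57, and gave differences of -1.26 and -1.13. TAF1C changed by 0.12 in HL60, a difference of -1.19 (adjusted p = 0.0450 from limma), which lost its adjusted p, at most 0.168, without any one of the T24 control, 5-Aza-CdR or clorgyline arrays.

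**Figure D4:**
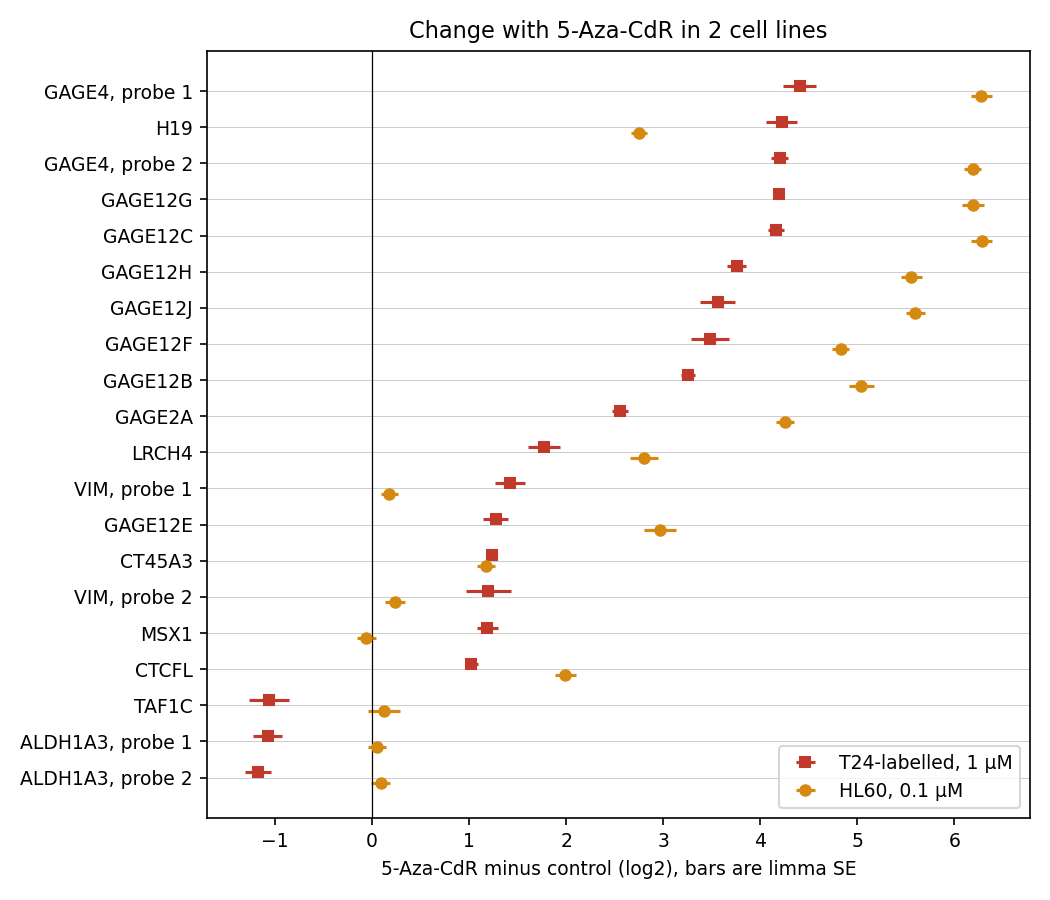
Change with 5-Aza-CdR (log2, x axis) of the called probes with a symbol on the arrays labelled T24 (squares, 1 µM) and in HL60 (circles, 0.1 µM), with bars of 1 limma standard error; the lines were normalized separately. The circles lie to the right of the squares for the GAGE probes, LRCH4 and CTCFL, to the left for H19, VIM and MSX1, and near the squares for CT45A3.

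The arrays labelled HCT116 were from day 20, not day 18. Among them, the GAGE genes, H19, LRCH4, CTCFL and CT45A3 were high on those labelled clorgyline and not on those labelled 5-Aza-CdR. GAGE12G lay at 7.69 and 7.64 on the arrays labelled control, at 7.63 and 7.67 on those labelled 5-Aza-CdR (0.3 µM), at 7.61 and 7.67 on those labelled combination, and at 11.68 and 10.95 on those labelled clorgyline. H19 lay at 7.60 to 7.73 on the first 6 of these arrays and at 12.88 and 11.85 on those labelled clorgyline. MSX1 was higher on every treated pair than on the controls, at 8.87 and 8.97 on those labelled control, 11.52 and 11.67 with 5-Aza-CdR and 13.47 and 13.46 with clorgyline. The brighter VIM probe was as high on those labelled control, at 11.59 and 11.31, as on those labelled clorgyline, at 11.65 and 11.90. Whether arrays were exchanged was not tested.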

How the data were processed

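Expression of 3 cell lines was measured on Illumina HumanHT-12 V4 BeadChips. The values deposited are log2 intensities that the authors processed with lumi, transformed and normalized by Robust Spline Normalization; the submitters' processing notes name lumi 2.6.0 for T24 and HCT116 and 2.8.0 for HL60. Background correction and probe filtering are not given in the sources used here. The comparison, its genes and the gene lists were chosen with earlier results of these data known.

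For each probe, limma 3.58.1 in R 4.3.3 was fitted to the 8 arrays labelled T24, with a mean per condition, a shared spread (4 residual degrees of freedom) and empirical Bayes moderation. The limits were an unadjusted p under 0.01 and a fold over 2, after the study's methods, which do not say whether p was adjusted, or a Benjamini-Hochberg adjusted p under 0.05 over 47231 probes. The annotation gives 30113 probes a single symbol, 8 several and 17110 none. For 20046 genes, the probe with the highest mean over the 8 arrays was fitted. The combinatorial treatment was set against 5-Aza-CdR in the same fit, and changes on the arrays labelled T24 and HL60 were compared as an interaction over 16 arrays, with 2 probes incomplete in HL60. The fit of 5-Aza-CdR against control was tested on a single set of simulated data with independent noise, and the other comparisons were not. Same-numbered arrays did not deviate together (control with 5-Aza-CdR, correlation -0.12). That cannot show whether the numbers pair samples, and the main fit held no pairing.

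Named genes are those with a called probe or an adjusted p under 0.05, genes the study names for T24, drug targets, and, from each list, at most 4 genes past p under 0.01 ranked by size of change. CT45A4 has no probe in the annotation and was not analysed here. Promoter windows are the 250 bases before RefSeq start sites (GRCh38.p14). Alternatives were adjusted p with the fold limit, bright probes, a second quantile normalization, median centring, other samples for the spread, a robust trend, a replicate block, a single probe per gene and the omission of single arrays.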

Additional observations from a re-analysis of the deposited data

Results flagged for a closer look

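The change with 5-Aza-CdR on the arrays labelled T24 minus that in HL60 differed from 0 at an adjusted p under 0.05 (limma) for most called genes, at doses that differ (1 and 0.1 µM). For the GAGE genes the difference was -2.0 for GAGE12G, -1.99 and -1.87 for the 2 probes of GAGE4, -2.12 for GAGE12C, -1.80 for GAGE12H, -2.04 for GAGE12J, -1.35 for GAGE12F, -1.79 for GAGE12B, -1.70 for GAGE2A and -1.69 for GAGE12E. LRCH4 and CTCFL gave -1.03 and -0.97. The GAGE genes and CTCFL start at the floor, which lay lower in HL60, and this can shift their differences towards a larger change in HL60. The difference was positive for H19 at 1.47, MSX1 at 1.25 and VIM at 1.24, and negative for TAF1C at -1.19 and for the 2 probes of ALDH1A3 at -1.13 and -1.26. All these probes were called by their change on the arrays labelled T24, which is itself part of the difference. A difference in the direction of the call therefore follows in part from the selection. MSX1 and ALDH1A3 lay near the floor in HL60.

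Arrays labelled HCT116, sampled on day 20, entered only the alternative fit of all 24 arrays. Between those labelled clorgyline and those labelled control, values differed by 3.65 for GAGE12G, 4.74 for H19, 1.47 for CTCFL, 2.75 for LRCH4 and 1.08 for CT45A3, each higher with the clorgyline label. Every other array labelled HCT116 lay near the floor for GAGE12G and H19.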

How the results depend on the processing

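The count of 30 up-regulated transcripts ran from 29 to 33 when each array was left out, and 29 or 30 of the same transcripts were called whenever the fit or the arrays were changed. It was 15 with 1 probe per gene, by construction, and 25 with adjusted p and the fold limit kept. The down-regulated count of 3 was 0 with adjusted p and the fold limit kept and 2 to 9 when arrays were left out (9 without 5-Aza-CdR replicate 1). Transcripts higher at an adjusted p under 0.05 (44) were 20 with 1 probe per gene, 27 when the fit held just the groups compared, 135 with a robust trend and 16 to 47 when arrays were left out (18 and 16 without control replicates 1 and 2). Those lower (12) were 3, 69 and 5 with only the groups compared, a robust trend and the replicate block, and 1 to 15 when arrays were left out (1 without either control array, 3 without 5-Aza-CdR replicate 2, 6 without either clorgyline array). Genes higher and lower at p under 0.01 (315 and 283) were 139 and 112 with all 24 arrays in 1 fit, and 152 to 451 and 131 to 443 when arrays were left out (171 and 148 without control replicate 1, 152 and 131 without replicate 2). Of the 17 up- and 3 down-regulated probes with a symbol, 10 differed between the combination and 5-Aza-CdR, against 2 with only the groups compared and 17 with a robust trend. Between the arrays labelled T24 and HL60, 18 of these probes differed, against 19 with a robust trend. The share of all probes that differed was not taken for either contrast. With the replicate block the other counts were 31 up, 3 down and 32 higher, and 279 and 260 genes. A block with the 2 5-Aza-CdR numbers crossed, added after seeing the data, gave 30 up, 3 down, 38 higher and 14 lower. Small changes had no fixed sign when arrays were left out, with ranges of -0.026 to 0.0018 for DNMT3A, -0.50 to 0.043 for KDM1A, -0.090 to 0.24 for DNMT1 and -0.057 to 0.095 for GTSF1, and, combination minus 5-Aza-CdR, -0.057 to 0.15 for MSX1 (also -0.02 without combination replicate 1) and -0.0094 to 0.44 for VIM. The cause was not tested. Of 47231 probes most lie near the floor, where changes are compressed and small changes could not be seen.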
